A study of Mus musculus with 6 samples.

Results

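Collagen chains are the products of the genes named Col, a type number, the letter a and a chain number. Such chains wind into the triple helix of collagen, the main structural protein of the extracellular matrix. The set was taken as every protein-coding gene with a name of that form, which gave 43 of the 32244 genes listed, and 35 of the 43 had enough counts to be tested. The RNA came from epididymal white adipose tissue, a visceral fat depot, of Eepd1 knockout mice (EKO) and wild-type mice (WT), all C57BL/6J and all fed a high-fat diet for 3 months. Eepd1 encodes an endonuclease/exonuclease/phosphatase family protein. There were 3 bulk mRNA libraries per genotype, and the single comparison was EKO against WT. The labels used here give neither the age of the mice, the part of Eepd1 removed, nor whether each library came from 1 animal, so the p-values below rest on a spread between libraries that may be technical.

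Fibrillar collagens (types I, II, III, V, XI, XXIV and XXVII) form fibres that give tissue tensile strength. Type IV collagen forms the sheet-like network of basement membranes, which in fat surround every adipocyte and capillary, and type VI forms beaded microfilaments that are abundant around adipocytes. Fibril-associated collagens (FACITs) bind to the surface of fibres, and multiplexins sit between basement membrane and fibres. In obese fat, fibroblast-like progenitors are a known main source of fibrillar collagen, while adipocytes, endothelial cells and pericytes also make basement membrane chains.

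Total counts were 17215072 to 18330206 per library. Levels are in CPM, the count divided by the library total scaled with its TMM factor, and 3 counts in a library correspond to 0.154 to 0.192 CPM, a limit that covers counting error alone. Eepd1 measured 152, 47.7 and 116 CPM across EKO libraries 1 to 3, against 244, 304 and 192 CPM across WT libraries 1 to 3, lower in EKO without overlap but present in all 3 libraries; whether the counted exons lie in the deleted part is not known from the labels. The adipocyte markers Adipoq, Plin1 and Lep were present in every library, with Adipoq at 180 to 711 CPM in EKO and 1371 to 2616 CPM in WT. WT replicate 2 stood apart from the other libraries and held testis transcripts, with a summed level of 6 germ cell markers of 1714 CPM against 0 to 86.4 CPM elsewhere, and each of the 6 was at 0 in at least 1 library. EKO replicate 2 was the opposite extreme of the first principal component (59.4% of the variance).

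The chains differ in the repeat that winds the helix, in which each triplet of codons opens with a glycine codon (GGN). Runs of at least 5 such triplets were counted in the principal transcript of each gene in GENCODE M21 (GRCm38). In the 11 fibrillar genes the longest unbroken run was 216 to 344 triplets, and 21 to 33 coding exons were exactly 54 bases long, the length of 6 triplets. In the 6 type IV genes the longest run was 39 to 66 triplets, the repeat was broken into 22 to 27 runs, and 1 to 3 exons were 54 bases long. Type VI genes had 3 to 5 runs with a longest run of 37 to 87 triplets, and FACIT genes 2 to 21 runs with a longest run of 32 to 113. The sequences below show the repeat and its breaks in 54 bases of coding sequence per gene, with glycine codons of a run in capitals. Their positions were chosen by class, so the windows do not themselves compare the classes. The fibrillar stretches come from the middle of the longest run.
Col3a1: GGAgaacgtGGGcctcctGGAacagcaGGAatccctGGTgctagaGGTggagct
Col1a1: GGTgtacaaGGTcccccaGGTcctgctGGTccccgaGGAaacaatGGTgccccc
Col5a2: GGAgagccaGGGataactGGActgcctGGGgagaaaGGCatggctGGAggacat
The next stretches, from type IV, type VI, short-chain and FACIT genes, are centred on the end of the longest run, where the repeat breaks.
Col4a1: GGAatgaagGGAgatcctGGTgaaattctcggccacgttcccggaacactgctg
Col4a2: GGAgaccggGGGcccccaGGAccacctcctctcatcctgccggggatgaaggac
Col6a3: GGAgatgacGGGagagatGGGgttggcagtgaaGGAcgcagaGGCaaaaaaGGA
Col8a1: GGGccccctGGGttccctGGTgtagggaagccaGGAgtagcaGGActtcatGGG
Col14a1: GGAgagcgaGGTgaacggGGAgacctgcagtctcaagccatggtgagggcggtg
In Col6a3 and Col8a1 the repeat resumes within the window, while in the Col4a1, Col4a2 and Col14a1 windows no codon after the break belongs to a run.

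Collagen transcripts took a larger share of the RNA in EKO, without overlap between the genotypes. Across EKO libraries 1 to 3 the 43 chains made up 1.47%, 1.94% and 1.45% of all counts, against 1.01%, 0.852% and 1.31% across WT libraries 1 to 3. Of these counts, 5 chains (Col3a1, Col1a2, Col1a1, Col4a1 and Col4a2) supplied 65.8 to 68.6% in EKO and 56.1 to 61.2% in WT. In bulk tissue, more cells of a type and more RNA per cell cannot be told apart, and this holds for every level below.

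The fibrillar chains Col3a1, Col1a1, Col1a2, Col5a1, Col5a2 and Col27a1 stood higher in EKO without overlap, while the fibrillar Col5a3, Col11a2 and Col24a1 overlapped. Higher without overlap in the other classes were Col4a1, Col4a2, Col6a3, Col7a1, Col8a1 and Col14a1. With library totals alone, Col5a1, Col27a1, Col4a1, Col4a2 and Col14a1 overlapped. Several minor type IV and type VI chains had negative log2 differences, and of these only Col6a6 did not overlap between the genotypes. The sign changed under some alternatives for Col4a3, Col4a5, Col6a4 and Col6a5. No chain passed the edgeR quasi-likelihood test at an adjusted p of 0.05 over all 16121 genes tested, and neither did any other gene (0% called in either direction), the lowest adjusted p among chains being 0.0669 for Col3a1. At an unadjusted p under 0.05, 9 of 35 tested chains were higher and 1 lower, beside 18.9% and 13.8% of all genes tested. All 3 EKO libraries lay above all 3 WT libraries for 12 chains and below them for 3, beside 25.1% and 17.7% of all genes. The 12 became 9 with DESeq2 size factors (21.5% of all genes), 8 with upper-quartile factors (19.3%) and 7 with library totals alone (19.0%), a share of the chains near that of all genes. The DESeq2 Wald test called 6 chains higher and 0 lower of 32 with an adjusted p, beside 13.0% and 12.5% of all genes, limma-voom called 0, and limma-voom with sample quality weights called 7 higher and 0 lower, beside 14.8% and 10.6%. Without WT replicate 2, edgeR called 0 of 36 chains in either direction, beside 1.96% of all genes higher and 0.727% lower. The authors' deposited table marks 4 chains as significantly up and 0 as down, beside 5.09% and 5.04% of its genes with an adjusted p. Over the 35 chains 22 had a positive log2 difference (51.3% of all genes did), and the median was 0.12, against 0.02 over all genes tested.

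**Figure D1:**
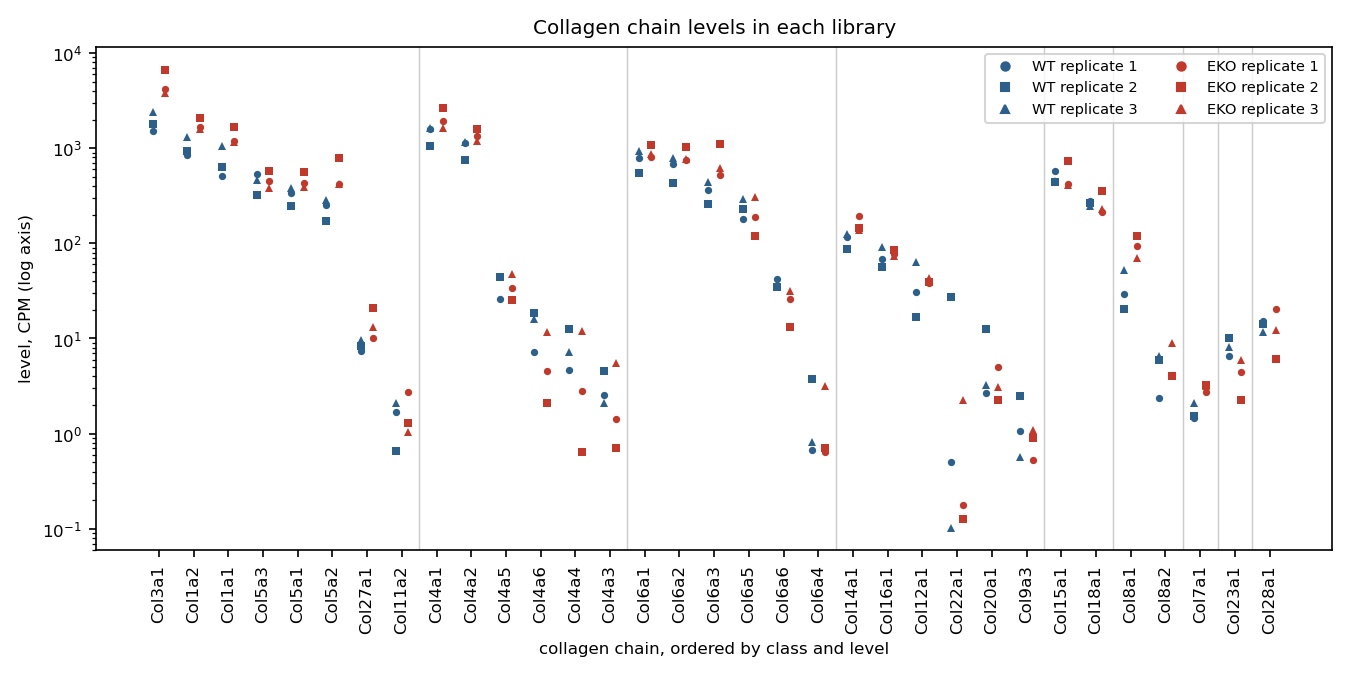
Level of each collagen chain with a mean of at least 1 CPM, in CPM on a log axis, with chains grouped by class (vertical lines) and 1 point per library (blue WT, red EKO; circle, square and triangle for replicates 1, 2 and 3). The red points of Col3a1, from 3791 to 6650 CPM, lie above its blue points, from 1527 to 2372 CPM, while the points of Col15a1 and Col18a1 mix.

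Type III collagen, a thin-fibre homotrimer of distensible tissues encoded by Col3a1 (chromosome 1, 45311538 to 45349706, plus strand, GRCm38), was the most abundant chain. Col3a1 measured 4231, 6650 and 3791 CPM across EKO libraries 1 to 3, against 1527, 1816 and 2372 CPM across WT libraries 1 to 3. It averaged 4891 ± 1539 CPM in EKO and 1905 ± 430 CPM in WT (SD, n = 3 each), which is 2.57-fold higher. The genotypes did not overlap, and EKO replicate 2 was the highest library. The log2 difference was 1.36 ± 0.34 (SE), and it ranged from 1.05 to 1.56 when each library was left out in turn, 1.05 being the value without EKO replicate 2. Its edgeR adjusted p was 0.0669, within 0.000198 to 0.256 over the alternatives.

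Type I collagen, the main fibre protein of connective tissue, is a heterotrimer of the Col1a1 and Col1a2 products. Col1a1 (chromosome 11, 94936224 to 94953042, plus strand) measured 1201, 1676 and 1173 CPM across EKO libraries 1 to 3, against 513, 629 and 1052 CPM across WT libraries 1 to 3. Col1a2 stood at 1664, 2080 and 1575 CPM in EKO and at 847, 924 and 1326 CPM in WT, in the same order of replicates. In both genes WT replicate 3 was the highest WT library and the groups did not overlap. The differences were 1.85-fold for Col1a1 (log2 0.88 ± 0.32 SE, edgeR adjusted p = 0.120) and 1.72-fold for Col1a2 (log2 0.78 ± 0.25 SE, edgeR adjusted p = 0.0949). Without WT replicate 3 the log2 values were 1.25 and 1.01, and over all libraries left out in turn they were 0.65 to 1.25 and 0.63 to 1.01.

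Type V collagen nucleates fibres and limits their diameter, and its 3 genes gave unlike values. Col5a2, a neighbour of Col3a1 on chromosome 1 with 24614 bases between their convergent ends, measured 425, 784 and 422 CPM across EKO libraries 1 to 3, against 250, 173 and 285 CPM across WT libraries 1 to 3. Col5a1, whose product pairs with that of Col5a2, stood at 429, 567 and 389 CPM in EKO and at 338, 245 and 382 CPM in WT. Col5a3, the chain of a less common type V trimer, stood at 450, 570 and 386 CPM in EKO and at 531, 324 and 463 CPM in WT. The genotypes were well apart for Col5a2 (2.31-fold, log2 1.21 ± 0.32 SE, edgeR adjusted p = 0.0697), nearly touched for Col5a1 (1.44-fold, log2 0.52 ± 0.23 SE, edgeR adjusted p = 0.170) and overlapped for Col5a3 (1.07-fold, log2 0.09 ± 0.24 SE, edgeR adjusted p = 0.805). Without EKO replicate 2 the log2 value of Col5a2 was 0.82, the lowest of the libraries left out in turn, and that of Col5a1 was 0.32. Without WT replicate 2 Col5a1 was at 0.30, and with library totals alone it overlapped between the genotypes.

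The other fibrillar genes were low in fat. Col27a1, a chain best known from cartilage, stood at 10, 20.8 and 13.2 CPM in EKO and at 7.46, 8.33 and 9.60 CPM in WT, 1.74-fold higher without overlap (log2 0.79 ± 0.30 SE, edgeR adjusted p = 0.128, and log2 0.44 without EKO replicate 2), and with library totals alone it overlapped. Col11a2 averaged 1.68 ± 0.908 CPM in EKO and 1.48 ± 0.748 in WT, Col24a1 averaged 0.936 ± 0.249 and 0.653 ± 0.347, and both overlapped. The cartilage chain Col2a1 and its fibre partner Col11a1 were not tested. Col2a1 had 68 counts in WT replicate 2, the library with testis transcripts, and 1 to 8 in the others, and Col11a1 had 0 to 10 counts. All 9 tested fibrillar genes had a positive log2 difference (51.3% of all genes did), at a median of 0.78 (0.65 without WT replicate 2). At an unadjusted edgeR p under 0.05, 5 were higher, beside 18.9% of all genes. Without WT replicate 2, Col11a2 was at log2 -0.24 and Col5a3 at -0.14.

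**Figure D2:**
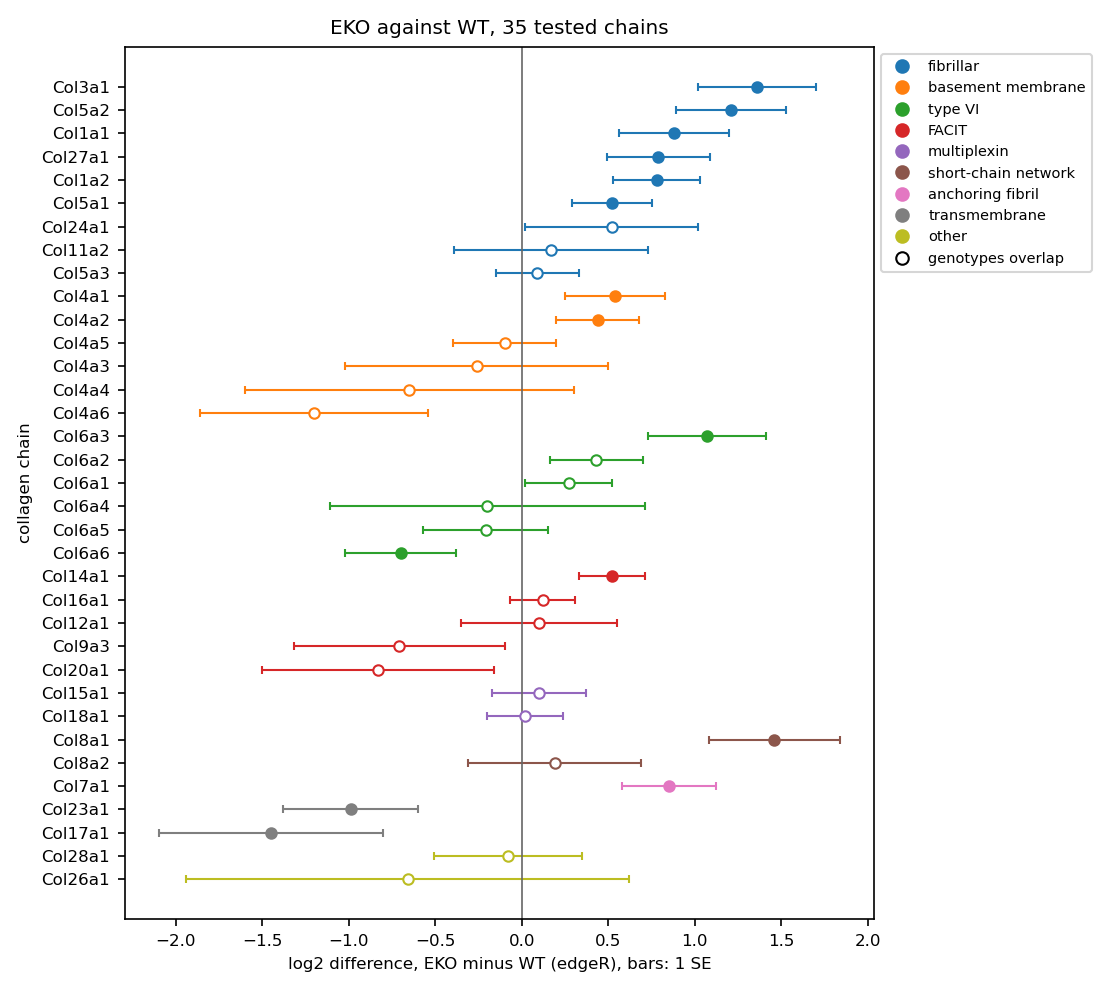
Log2 difference of EKO minus WT from edgeR for the 35 tested chains, with bars of 1 SE, grouped and coloured by class; filled circles are chains whose 3 EKO and 3 WT libraries do not overlap and open circles those that do. The fibrillar chains lie right of 0, from 0.09 for Col5a3 to 1.36 for Col3a1, and the type IV chains lie on both sides, from -1.20 for Col4a6 to 0.54 for Col4a1.

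Of the basement membrane chains, the pair present in almost all tissues, Col4a1 and Col4a2, stood modestly higher in EKO, and the restricted chains did not. Col4a1 (chromosome 8, 11198423 to 11312826, minus strand) measured 1912, 2638 and 1647 CPM across EKO libraries 1 to 3, against 1591, 1048 and 1612 CPM across WT libraries 1 to 3. Col4a2, on the plus strand beside it, stood at 1341, 1602 and 1188 CPM in EKO and at 1120, 759 and 1159 CPM in WT. For both genes EKO replicate 3 was only just above the highest WT library, and WT replicate 2 was the lowest of the 6. The differences were 1.46-fold (log2 0.54 ± 0.29 SE, edgeR adjusted p = 0.234) and 1.36-fold (log2 0.44 ± 0.24 SE, edgeR adjusted p = 0.243). Without WT replicate 2 the log2 values were 0.31 and 0.22, without EKO replicate 2 they were 0.30 and 0.29, and with library totals alone both genes overlapped between the genotypes.

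Type IV genes lie in head-to-head pairs, transcribed away from each other. Sequences of the 2 pairs listed in the RefSeq promoter table (GRCm38.p6) are shown on the plus strand because the members of each pair can be compared within a library. The 5′ ends of Col4a1 and Col4a2 overlap by 22 bases at chr8:11312805-11312826, and those of Col4a4 and Col4a3 are separated by 71 bases at chr1:82586850-82586920.
Col4a1 and Col4a2 overlap: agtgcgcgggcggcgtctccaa
Col4a4 and Col4a3 interval: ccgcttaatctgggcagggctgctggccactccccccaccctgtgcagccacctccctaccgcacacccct
Reads within the overlap of Col4a1 and Col4a2 cannot be assigned without strand, and it covers 0.29% of the exonic bases of Col4a1. Per kilobase of principal transcript, the ratio of Col4a1 to Col4a2 was 1.35 to 1.39 in all libraries but EKO replicate 2, where it was 1.61. The ratio of Col4a3 to Col4a4 was 0.346 to 0.648 in all libraries but EKO replicate 2 (1.30), where they had 11 and 10 counts.

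The remaining type IV chains, components of specialised basement membranes such as that of the kidney glomerulus, varied widely between libraries of 1 genotype. Col4a6 measured 4.60, 2.12 and 11.6 CPM across EKO libraries 1 to 3, against 7.29, 18.7 and 16.1 CPM across WT libraries 1 to 3. Col4a4 stood at 2.83, 0.641 and 12.1 CPM in EKO and at 4.63, 12.6 and 7.19 CPM in WT. Col4a3 stood at 1.42, 0.706 and 5.49 CPM in EKO and at 2.54, 4.52 and 2.10 CPM in WT. In all 3 genes the lowest library was EKO replicate 2, EKO replicate 3 lay among the WT libraries or above them, and the genotypes overlapped. Col4a5, the partner of Col4a6, was more even, with 33.8, 25.5 and 47.3 CPM in EKO and 25.7, 44.0 and 44.2 CPM in WT. The log2 differences ran from -1.20 ± 0.66 (SE) for Col4a6 to -0.10 ± 0.30 for Col4a5, with edgeR adjusted p from 0.247 to 0.837. Col4a6 was at -2.06 without EKO replicate 3 and -0.80 without EKO replicate 2, and Col4a4, at -0.65 ± 0.95 with all libraries, was at -2.22 and -0.13.

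The summed level of 6 mesothelial markers (Msln, Upk3b, Krt19, Wt1, Lrrn4 and Upk1b), none of them at 0 in any library, was 71.4, 33.2 and 175 CPM across EKO libraries 1 to 3, against 117, 333 and 308 CPM across WT libraries 1 to 3. That order of the 6 libraries is also the order of Col4a6, but not that of Col4a3, Col4a4 or Col4a5. This correspondence was noticed after the values were seen, and its part in the Col4a6 values was not tested. Over the type IV class, 2 of 6 tested chains had a positive log2 difference (51.3% of all genes did). The median was -0.18, with values of -0.93 without EKO replicate 3 and 0.12 without EKO replicate 2.

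Type VI collagen is assembled from the products of Col6a1 and Col6a2 with a larger chain, most often that of Col6a3. Col6a3 (chromosome 1) also carries the precursor of endotrophin, a fragment released in obese fat. It measured 517, 1095 and 612 CPM across EKO libraries 1 to 3, against 367, 259 and 436 CPM across WT libraries 1 to 3, a 2.09-fold difference without overlap (log2 1.07 ± 0.34 SE, edgeR adjusted p = 0.0949, and log2 0.65 without EKO replicate 2). Col6a1 stood at 810, 1076 and 866 CPM in EKO and at 798, 543 and 934 CPM in WT. Col6a2, its neighbour on chromosome 10, stood at 756, 1029 and 761 CPM in EKO and at 679, 428 and 787 CPM in WT. Both overlapped between the genotypes, at log2 differences of 0.27 ± 0.25 (SE) for Col6a1 and 0.43 ± 0.27 for Col6a2. These were 0.03 and 0.15 without WT replicate 2, and 0.12 and 0.24 without EKO replicate 2.

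Col6a4, Col6a5 and Col6a6 lie side by side on chromosome 9 and encode alternatives to that larger chain. Col6a5 measured 188, 118 and 305 CPM across EKO libraries 1 to 3, against 181, 231 and 295 CPM across WT libraries 1 to 3, with overlap. Col6a6 stood at 26.1, 13.1 and 31.9 CPM in EKO and at 42.6, 35.1 and 37.8 CPM in WT, so that every EKO library was below every WT library. The difference was log2 -0.70 ± 0.32 (SE, edgeR adjusted p = 0.179), and -0.43 without EKO replicate 2. Col6a4 was at 0.649 to 3.76 CPM and overlapped. Of the 6 type VI chains 3 had a positive log2 difference (51.3% of all genes did), and the class median was 0.04.

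Among fibril-associated chains, Col14a1, whose product coats fibres in skin and tendon, measured 192, 145 and 138 CPM across EKO libraries 1 to 3, against 117, 86.9 and 126 CPM across WT libraries 1 to 3. This was 1.44-fold higher without overlap (log2 0.52 ± 0.19 SE, edgeR adjusted p = 0.123), 0.33 without WT replicate 2 and overlapping with library totals alone. Col12a1, a related chain, stood at 37.9, 38.9 and 43.4 CPM in EKO and at 31.0, 17.0 and 64.3 CPM in WT, where the WT libraries spread around all EKO values. Col16a1 likewise overlapped, at 73.3 to 84.2 CPM in EKO and 56.0 to 90.5 CPM in WT. The 5 tested FACIT chains had a median log2 difference of 0.10, and -0.02 without WT replicate 2.

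Single libraries carried several other FACIT chains. Col22a1, a chain of tissue junctions such as those of muscle and tendon, had 500 counts (27.2 CPM) in WT replicate 2, 39 in EKO replicate 3, 9 in WT replicate 1 and 2 or 3 in the others. The 3 libraries with the most germ cell marker counts come in the same order, and their part in the Col22a1 values was not tested. Col20a1, at 12.6 CPM in WT replicate 2 and 2.25 to 5.01 CPM elsewhere, Col9a3, Col9a1 and Col19a1 were also highest in WT replicate 2. No direction between the genotypes is read from these 5 genes.

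The multiplexins Col15a1 and Col18a1, the source of endostatin, had log2 differences near 0. Col15a1 measured 421, 737 and 413 CPM across EKO libraries 1 to 3, against 579, 443 and 447 CPM across WT libraries 1 to 3. Col18a1 stood at 213, 357 and 230 CPM in EKO and at 278, 263 and 245 CPM in WT. Both genotypes overlapped, and the log2 differences were 0.10 ± 0.27 (SE) and 0.02 ± 0.22, with edgeR adjusted p of 0.822 and 0.946; differences of the size of these errors cannot be seen with 3 libraries.

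Col8a1, which encodes a short-chain collagen of vessel walls and remodelling matrix, had the largest positive log2 difference among the 35 tested chains. It measured 92.9, 119 and 70.3 CPM across EKO libraries 1 to 3, against 29.3, 20.4 and 53.0 CPM across WT libraries 1 to 3. It averaged 94.1 ± 24.3 CPM in EKO and 34.2 ± 16.9 CPM in WT (SD, n = 3 each), 2.75-fold higher without overlap. Its log2 difference was 1.46 ± 0.38 (SE, edgeR adjusted p = 0.0686, within 0.00427 to 0.243 over the alternatives), and 1.13 without WT replicate 2 to 1.93 without WT replicate 3. Its partner Col8a2 was lower in level, at 2.37 to 8.92 CPM, and overlapped (log2 0.19 ± 0.50). Col10a1, the short chain of growth-plate cartilage, had 2 to 5 counts in each library.

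Col7a1, the anchoring fibril chain of epithelial basement membranes, was scarce, at 2.71, 3.27 and 3.20 CPM in EKO and 1.47, 1.52 and 2.10 CPM in WT (1.80-fold, edgeR adjusted p = 0.0925). The transmembrane chains were also scarce. Col23a1 stood at 4.42, 2.25 and 5.89 CPM in EKO and 6.61, 10.1 and 8.21 CPM in WT, 1.98-fold lower in EKO without overlap (log2 -0.99 ± 0.39 SE, edgeR adjusted p = 0.139). Col17a1, the hemidesmosome chain of epithelia, had 1, 5 and 8 counts in EKO and 13, 18 and 12 in WT. Col13a1 and Col25a1 were below the filter on low counts. Col28a1, a chain with von Willebrand factor A domains, stood at 6.03 to 20.6 CPM in EKO and 11.7 to 15.1 CPM in WT, and Col26a1 had 0 to 42 counts.

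Per kilobase of principal transcript, which allows levels of different chains to be ordered, Col3a1 led in both genotypes. Its level was 342 ± 77.2 CPM per kilobase in WT and 879 ± 277 in EKO (SD, n = 3). In WT it was followed by Col4a1 (214 ± 48.4), Col1a2 (193 ± 48.0), Col6a1 (185 ± 48.4), Col6a2 (160 ± 46.7), Col4a2 (157 ± 34.2) and Col1a1 (123 ± 47.9), and no neighbours in this order after Col3a1 differed by more than their SDs. In EKO the order was Col1a2 (332 ± 50.4), Col4a1 (312 ± 77.5), Col1a1 (228 ± 47.6), Col6a1 (224 ± 34.2), Col6a2 (215 ± 39.5) and Col4a2 (214 ± 32.5), so that Col1a1 was in place 7 in WT and place 4 in EKO. The order within these 7 depends on the transcript length used, and with the union of annotated exons Col1a2 was in place 6 in WT.

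As a share of the summed level per kilobase of all 43 chains, fibrillar chains made up 55.4%, 57.3% and 54.1% across EKO libraries 1 to 3, against 39.0%, 48.0% and 47.0% across WT libraries 1 to 3. Type IV chains made up 17.4 to 19.0% in EKO and 19.3 to 23.9% in WT, multiplexins 4.76 to 5.79% and 6.37 to 9.68%, and FACITs 1.22 to 2.00% and 2.12 to 2.30%. None of these 3 classes overlapped between the genotypes, and all were lower in EKO. The FACIT share of WT replicate 2 includes Col22a1 at 3.09 and Col20a1 at 2.51 CPM per kilobase, beside 15.3 for Col14a1. Because Col22a1 and Col20a1 were highest in that library, no direction is read from the FACIT share. The type VI share was 17.6 to 20.4% in EKO and 20.1 to 24.6% in WT and overlapped. These shares do not depend on the scaling between libraries, and as parts of one total they are not independent of each other.

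**Figure D3:**
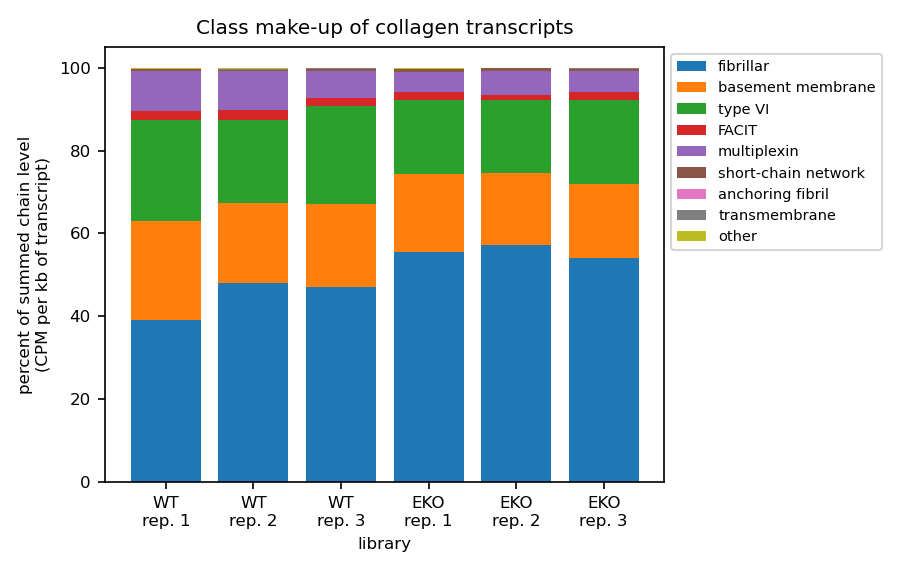
Share of each collagen class in the summed level per kilobase of the 43 chains, in percent, with 1 stacked bar per library. The fibrillar share is 54.1 to 57.3% in the EKO bars and 39.0 to 48.0% in the WT bars.

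Ratios between chains of the same library are free of the scaling as well. For 17 pairs, chosen after the levels were seen and so described without a test, some differed between the genotypes without overlap. The Col5a2 to Col5a1 ratio was 1.26, 1.76 and 1.38 across EKO libraries 1 to 3, against 0.938, 0.898 and 0.945 across WT libraries 1 to 3. The Col6a3 to Col6a1 ratio was 0.291, 0.464 and 0.322 in EKO and 0.210, 0.217 and 0.213 in WT. WT libraries were close to one another in both ratios, and every EKO library lay above them. In the opposite direction, the Col5a3 to Col5a1 ratio was 1.36 to 1.44 in EKO and 1.66 to 2.16 in WT, and Col4a6 to Col4a5 was 0.0817 to 0.241 and 0.279 to 0.419. Col6a1 to Col6a2 was also lower without overlap, at 1.01 to 1.1 in EKO and 1.13 to 1.22 in WT. Col3a1 to Col4a1 was higher without overlap, at 2.63 to 3.0 in EKO and 1.14 to 2.06 in WT. The pairs not named here all overlapped. Col3a1 to Col1a1 was 3.44 to 4.23 in EKO and 2.40 to 3.17 in WT, without overlap, whereas Col1a1 to Col1a2, at 0.651 to 0.726 in EKO and 0.546 to 0.716 in WT, overlapped. Type I protein holds more of the first chain than of the second, and a ratio below 1 here also depends on transcript length and read coverage along the transcript.

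**Figure D4:**
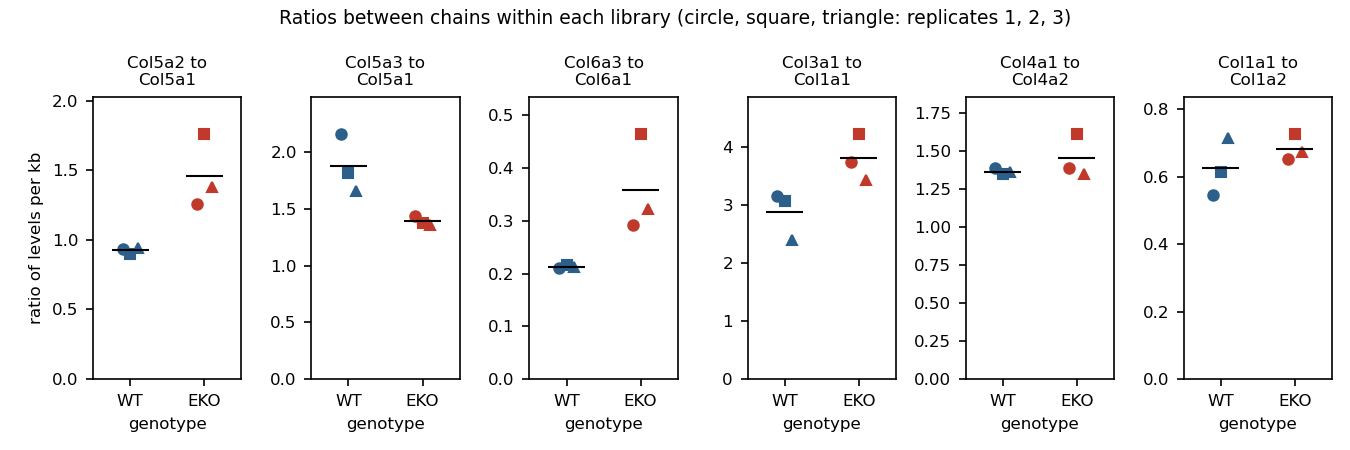
Ratio of levels per kilobase between 2 chains in each library, by genotype, with horizontal lines at group means over 3 libraries and axes from 0. The Col5a2 to Col5a1 and Col6a3 to Col6a1 ratios are tightly grouped in WT (0.898 to 0.945 and 0.210 to 0.217) and higher in EKO, while Col4a1 to Col4a2 and Col1a1 to Col1a2 overlap.

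Enzymes that modify and process collagen were compared as listed partners. Of 18 genes for hydroxylation, glycosylation and folding, 17 were tested and 14 had a positive log2 difference (51.3% of all genes did), at a median of 0.37. The collagen galactosyltransferase Colgalt1 averaged 305 ± 26.1 CPM in EKO and 164 ± 52.9 in WT (edgeR adjusted p = 0.0782), the lysyl hydroxylase Plod1 (edgeR adjusted p = 0.0912) and the prolyl isomerase Ppib (edgeR adjusted p = 0.0706) were also higher without overlap. Of 12 genes that cleave propeptides or crosslink fibres, 8 had a positive difference, at a median of 0.56 (0.36 without WT replicate 2). Pcolce, the enhancer of the C-propeptide protease, stood at 135, 249 and 156 CPM in EKO and at 68.7, 73.6 and 91.5 CPM in WT (log2 1.21 ± 0.26 SE, edgeR adjusted p = 0.0628), while the protease Bmp1 (log2 0.88 ± 0.24) and the lysyl oxidase Loxl2 (log2 1.36 ± 0.31) did not overlap either.

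Genes of collagen breakdown had the largest median of the 5 partner lists. All 8 tested of 9 had a positive difference (51.3% of all genes did), at a median log2 of 1.31 (0.99 without WT replicate 2). The collagen-degrading lysosomal protease Ctsk stood at 631, 968 and 753 CPM in EKO and at 179, 58.3 and 174 CPM in WT, and the collagenase Mmp13 at 11.7, 45.5 and 18.6 CPM in EKO and 2.15, 0.327 and 2.36 CPM in WT. Ctsl, a lysosomal protease of broad specificity, was higher as well (log2 1.71 ± 0.35). Of the collagen receptors, the inhibitory leukocyte receptor Lair1 was higher (log2 1.82 ± 0.49) and the integrin subunits Itga1 and Itga2 were lower (log2 -0.95 ± 0.36 and -0.75 ± 0.27), all without overlap, and the 10 tested had a median of -0.14 (-0.46 without WT replicate 2).

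Of 17 non-collagen partners of basement membranes, 16 were tested. Among these, 5 had a positive and 11 a negative log2 difference (51.3% of all genes were positive). The median was -0.38 (-0.54 without WT replicate 2). Of the 6 type IV chains, Col4a1 and Col4a2 had positive differences and 4 had negative ones, at a median of -0.18. The laminin chain Lama2 was higher, at 211, 269 and 198 CPM in EKO and 133, 84.6 and 123 CPM in WT. Nid2, a nidogen that links laminin to type IV collagen, stood at 60.6, 63.9 and 62.9 CPM in EKO and 87.5, 124 and 88.0 CPM in WT, and the heparan sulphate proteoglycan Agrn was lower as well (log2 -0.46 ± 0.12). The edgeR test called 0 members of any partner list over all genes; 22 were higher and 8 lower at an unadjusted p under 0.05 among 63 tested genes of the 5 lists, beside 18.9% and 13.8% of all genes, and DESeq2 called 17 higher and 6 lower, beside 13.0% and 12.5%.

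The summed level of 10 fibroblast and progenitor markers was 3579 to 3998 CPM in EKO and 2467 to 2972 CPM in WT. All 10 had a positive log2 difference, at a median of 0.35 (0.22 without WT replicate 2), and 5 did not overlap. Over all genes tested, 51.3% had a positive difference and 25.1% were higher without overlap. The first 3 members gave unlike values, with Dpt at log2 0.04 ± 0.15 and Pi16 at 0.12 ± 0.21, while Pdgfra was at 0.53 ± 0.17. The summed myofibroblast markers overlapped, at 737 to 1633 CPM in EKO and 480 to 750 CPM in WT, and the median of the 5 tested was 0.02, with Postn higher (log2 1.42 ± 0.39, and 0.89 without EKO replicate 2), Acta2 lower (log2 -0.95 ± 0.33) and Cthrc1 overlapping.

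Markers of other cell types also differed between the groups. The summed level of 8 macrophage markers was 6716 to 11014 CPM in EKO and 1555 to 3552 CPM in WT. Of the 8, 7 were higher without overlap (25.1% of all genes were), among them Adgre1, Cd68 and Csf1r. Cd163 was lower without overlap (log2 -0.73 ± 0.33 SE). The 5 mast cell markers, Cpa3 first, summed to 104 to 559 CPM in EKO and 40.8 to 54.5 CPM in WT. The 9 adipocyte markers, all with a negative log2 difference, summed to 4722 to 11994 CPM in EKO and 18571 to 27901 CPM in WT, and the 7 endothelial markers, among them Pecam1, Cdh5 and Kdr, to 413 to 775 CPM and 1038 to 1210 CPM. None of these 4 lists had a marker at 0 in any library. The 8 smooth muscle and pericyte markers summed to 542 to 609 CPM in EKO and 735 to 916 CPM in WT. Of the 8, 5 had a negative and 3 a positive log2 difference, 5 overlapped between the genotypes and 3 were lower without overlap. Over all genes tested, 51.3% had a positive difference and 17.7% were lower without overlap. The 6 hepatocyte markers, of which Alb, Fgb and Ttr were at 0 in some library, summed to 8.79 to 174 CPM in EKO and 6.32 to 61.0 CPM in WT. The part of these lists in the chain levels was not tested.

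**Figure D5:**
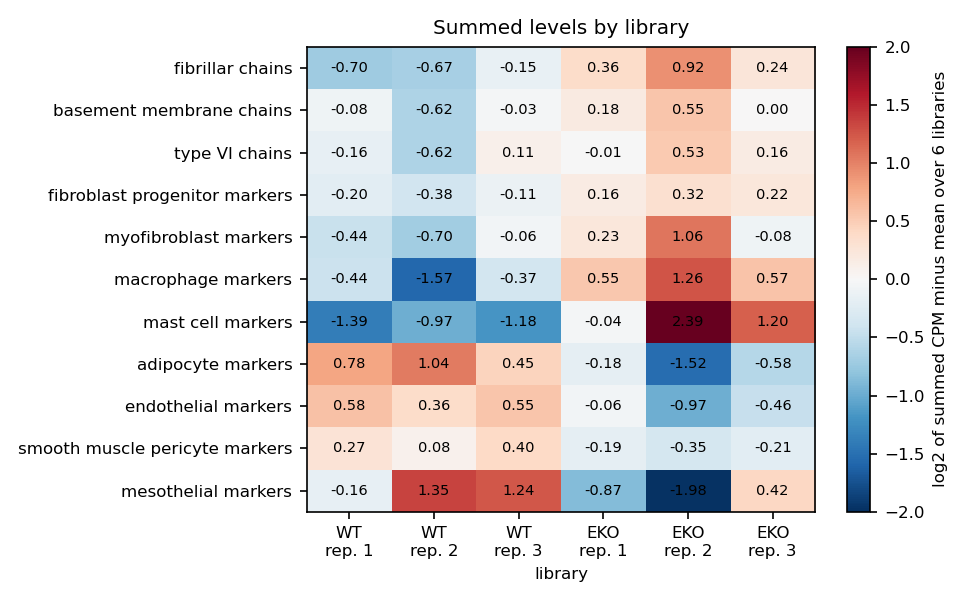
Log2 of the summed CPM of 3 collagen classes and 8 cell type marker lists in each library, minus its mean over the 6 libraries; red is above and blue below the mean. Fibrillar chains run from -0.70 in WT replicate 1 to 0.92 in EKO replicate 2, and macrophage markers from -1.57 in WT replicate 2 to 1.26 in EKO replicate 2.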

How the data were processed

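The authors deposited 1 table of raw read counts per gene for 6 libraries, per the file headers; it also holds, per the file headers, a log2 fold change and an adjusted p-value of the authors for EKO against WT. Genes the authors' table marks as significant had an adjusted p of at most 0.0498 and an absolute log2 fold change of at least 1. The submitters' processing notes name GRCm38 as genome build. For aligner, counter and strand, no setting is given in the sources used. Libraries were made by mRNA selection from TRIzol-extracted RNA, per the labels' protocols.

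All genes were fitted with the edgeR quasi-likelihood test (edgeR 4.0.16, R 4.3.3) after filterByExpr and TMM scaling, genotype as the sole term, with Benjamini-Hochberg adjustment over 16121 genes. SEs are the log2 difference divided by the square root of F. Positions of all 43 chains were the same in the table and in GENCODE M21. Exons of Col4a3, Col9a3 and Col6a4 overlap those of other annotated genes by 5.65%, 6.07% and 3.39%, so some of their reads are uncertain. Alternatives were other scalings and filters, DESeq2 1.42.0, limma-voom 3.58.1, a replicate block and each library left out. No library repeated another: the smallest chi-square between any pair, divided by its degrees of freedom, was 21.9. No pairing of libraries by replicate number was seen, which 3 libraries per genotype cannot exclude.

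The members, classes, partner and marker lists were chosen with earlier results of these data known. Chains with a mean of at least 1 CPM may be given by library, others by counts and range; the chains below 1 CPM that are named were chosen after their values were seen. Named are also the 3 partners per list with the smallest p, the first 3 markers per list and Eepd1. A further listed FACIT gene, Col9a2, was not analysed here.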

Additional observations from a re-analysis of the deposited data

How the results depend on the processing

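The call of 0 genes and 0 chains by edgeR held under every other scaling and filter run and under limma-voom. The DESeq2 Wald test called 3713 genes and 6 chains, and limma-voom with sample quality weights called 4101 genes and 7 chains. Leaving out each library in turn gave 0 to 443 genes, the 443 without WT replicate 2, and 0 to 0 chains. Chains higher in EKO without overlap numbered 7 with library totals alone (19.0% of all genes) and 10 to 16 with a library left out (23.5 to 29.6% of all genes). Those lower numbered 3 to 6 (20.1 to 24.2% of all genes), with 5 without EKO replicate 2 and 6 without EKO replicate 3. Library totals shifted the median log2 difference of all genes by -0.10. Without a filter on low counts, which admits scarcer chains, the fibrillar median was 0.47 and the FACIT median -0.75. With a library left out the class medians ranged from 0.52 to 0.90 (fibrillar), -0.93 to 0.12 (basement membrane), -0.46 to 0.04 (FACIT) and -0.15 to 0.28 (type VI).

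Of the 32 tested chains with a mean of at least 1 CPM, 19 kept the sign of their log2 difference under all alternatives run for them. Col17a1, Col24a1 and Col26a1 were tested but had lower means and are not in this count. Col26a1, at -0.66 with all libraries, was at 1.91 without WT replicate 2. Col18a1 was -0.02 with the DESeq2 Wald test, DESeq2 size factors, a filter of 1 CPM and no filter, -0.01 with limma-voom and with the replicate block, -0.09 with library totals and -0.08 with upper-quartile factors. Library totals gave -0.01 for Col12a1, -0.02 for Col15a1 and -0.02 for Col5a3, and upper-quartile factors -0.01 for Col15a1 and Col5a3. Quality weights gave -0.22 for Col11a2, -0.25 for Col15a1, -0.18 for Col18a1, 0.17 for Col20a1, 0.15 for Col4a3, 0.36 for Col4a5, -0.22 for Col5a3, 1.0 for Col6a4 and 0.16 for Col6a5. With a library left out the ranges were -0.35 to 0.51 for Col11a2, -0.30 to 0.75 for Col12a1, -0.26 to 0.25 for Col15a1, -0.08 to 0.33 for Col16a1, -0.26 to 0.17 for Col18a1, -1.19 to 0.18 for Col20a1 and -0.57 to 0.24 for Col28a1. They were -1.51 to 0.17 for Col4a3, -0.35 to 0.08 for Col4a5, -0.14 to 0.23 for Col5a3, -1.36 to 0.97 for Col6a4, -0.62 to 0.05 for Col6a5 and -0.29 to 0.46 for Col8a2. The cause of these changes was not tested.

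Libraries of the same replicate number correlated at 0.272, -0.312 and -0.355 in their deviations from the group means, and EKO replicate 3 with WT replicate 2 at 0.454. These values show no pairing by number, but with 3 libraries a group they cannot exclude it. With the replicate block, 0 genes and 0 chains passed, and 12 chains were higher and 3 lower without overlap. With 3 libraries a group and a biological coefficient of variation of 37.0%, small differences of single chains were not detectable.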
